A study of Mus musculus with 160 samples.

Results

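The extracellular matrix of vessels was followed through 10 genes in single mouse cells on the way from endothelium to blood. The genes were chosen by name, with earlier results of these data known. They were the collagen IV chains Col4a1 and Col4a2, the laminin chains Lama4, Lamb1 and Lamc1, the linking proteins Nid1, Hspg2 and Col18a1, and Sparc and Fn1. All 10 were found among the 23420 rows of the expression table. The table held 65 induced hematopoietic endothelial cells (iHECs) and 21 day-14, 18 day-17 and 56 day-21 induced hematopoietic progenitor cells (iHPCs), 160 cells in all. The question addressed was how endothelial matrix expression differed between iHECs and the iHPCs they form at days 3, 6 and 10 of maturation.

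All cells were of strain C57BL/6 and came from pluripotent stem cells with a doxycycline-inducible Runx1-p2a-Hoxa9 cassette in the Rosa26 locus, so controls without the factors were not among them. The labels name both embryonic and induced pluripotent stem cells as a source without assigning cells, and the lines were selected clones. The authors trace these single iHECs and iHPCs to the embryonic stem cell line. iHECs were sorted as CD31+ CD41low CD45- c-kit+ CD201high cells. Day-14 and day-17 iHPCs were sorted as lineage-negative CD45+ cells, and day-21 iHPCs as Ter119- CD45+ c-kit+ CD127+ cells, so the gate differed along with the day. The authors added doxycycline before the iHECs were sorted and kept it during maturation, so iHECs and iHPCs alike were exposed to it. The iHPCs had matured on OP9-DL1, a mouse bone marrow stromal line that displays a Notch ligand and can itself make matrix. Since no label ties a cell to a culture or an animal, a group stands for 1 sample here, its differences from other groups are unreplicated, and p-values are not given.

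The vascular basement membrane is a thin sheet on the outer face of endothelium. Laminins, each a trimer of an alpha, a beta and a gamma chain, form a layer that is bound to cells by integrins, and a network of collagen IV gives it strength. Nidogen and perlecan tie these networks together, and SPARC and fibronectin take part in how matrix is assembled and how cells hold on to it. Blood cells leave this sheet when they emerge from hemogenic endothelium.

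Expression was given in TPM, the abundance of a transcript as a share of all transcripts in a cell, which is scaled by transcript length. The cDNA was amplified, and whether different genes were recovered alike was not tested, so orders of genes by level hold for the listed values only. Detection means a value above 1 TPM, and means and SDs between cells were taken on the log2(TPM + 1) scale. Intervals of shares are exact Clopper-Pearson 95% intervals and cover counting error only. The files hold no read counts, so the depth of a cell is unknown. The median number of genes above 1 TPM was 4926 in iHECs, 8200 in day-14, 8101 in day-17 and 6695.5 in day-21 iHPCs. Most cells carried the markers of their label: iHECs had 6 to 12 of 12 endothelial markers, and Cdh5, the VE-cadherin of endothelial junctions, was detected in 63 of 65 iHECs and 0 of 95 iHPCs. Ptprc, which encodes CD45, was above 1 TPM in 1 iHEC, while 19 of 21 iHPCs held it at day 14, as did 17 of 18 at day 17 and 55 of 56 at day 21.

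Against their label, 3 iHPCs were nearly without blood markers. Over the 6 blood markers (Ptprc, Coro1a, Tyrobp, Sfpi1, Laptm5 and Vav1), day-14 cells 4 and 17 had means of 2.61 and 1.61 on the log2 scale, against 7.53 to 9.34 in the other day-14 cells. Day-17 cell 9 had a mean of 1.38, against 7.28 to 9.68 in the other day-17 cells. Pou5f1, a pluripotency factor, stood at 972 TPM in day-14 cell 4 and 698 TPM in cell 17, against at most 4.58 TPM in any other cell. The keratin transcript Krt18 stood at 2177 TPM in day-17 cell 9 and 986 TPM in day-17 cell 15, which did hold blood markers (Ptprc 50.6 TPM), but lower values were common, with up to 428 TPM in the other day-14 cells and 253 TPM in day-17 cell 3. Pou5f1 and Krt18 were looked up after the values had been seen. Because these cells were also rich in matrix transcripts, results that rest on them are given with and without them.

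Some cells were close to copies of another cell of their group. Over 9674 genes (those that more than 30 cells held at over 1 TPM), iHECs 5 and 6, 15 and 16, 24 and 25, and 32 and 33 had a Pearson's r of 0.963 to 0.991, against at most 0.699 in every other pair of iHECs. Day-17 cells 10 and 11 had an r of 0.985, against at most 0.819 in the other pairs of that day. At day 14, where cells were more alike (median 0.82), the pairs 5 and 6, 8 and 9, 13 and 20, and 14 and 21 had an r of 0.924 to 0.956, the next being 0.901, and no day-21 pair passed 0.805. The labels list all as separate cells, and whether a pair is 1 cell sequenced again was not tested. Values below use all 160 cells, so the intervals and SDs are too narrow if pairs are single cells. With each of the 9 pairs averaged and counted once, 61, 17, 17 and 56 cells remained in the 4 groups.

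Col4a1 and Col4a2 form a natural pair. In GRCm38 they lie head to head at chr8:11198423-11312826 on the minus strand and chr8:11312805-11449287 on the plus strand, and the RefSeq transcript starts overlap by 22 bases. The promoter windows of this pair are shown because the genes share the sequence between them, and that of Sparc because it was the most abundant of the 10 transcripts. Each window runs from 250 bases before to 50 bases after the RefSeq start (GRCm38.p6) in the direction of its gene, chr8:11312777-11313076 for Col4a1, chr8:11312555-11312854 for Col4a2 and chr11:55420031-55420330 (minus strand) for Sparc. Capitals mark matches on either strand to the GC box GGGCGG, to the CCAAT box, to the TATA box TATAAA or to the GATA site TGATAA.
Col4a1: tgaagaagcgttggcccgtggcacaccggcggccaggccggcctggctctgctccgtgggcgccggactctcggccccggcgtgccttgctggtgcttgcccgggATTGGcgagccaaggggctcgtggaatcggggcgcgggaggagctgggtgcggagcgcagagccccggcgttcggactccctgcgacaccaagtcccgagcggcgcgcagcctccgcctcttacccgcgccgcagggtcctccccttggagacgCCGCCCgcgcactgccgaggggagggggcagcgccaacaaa
Col4a2: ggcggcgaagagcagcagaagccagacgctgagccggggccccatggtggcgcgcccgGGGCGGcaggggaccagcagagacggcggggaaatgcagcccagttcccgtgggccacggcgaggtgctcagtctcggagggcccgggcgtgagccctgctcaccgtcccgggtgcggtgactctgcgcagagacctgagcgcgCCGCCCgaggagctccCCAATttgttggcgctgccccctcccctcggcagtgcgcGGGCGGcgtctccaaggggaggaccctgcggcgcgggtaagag
Sparc: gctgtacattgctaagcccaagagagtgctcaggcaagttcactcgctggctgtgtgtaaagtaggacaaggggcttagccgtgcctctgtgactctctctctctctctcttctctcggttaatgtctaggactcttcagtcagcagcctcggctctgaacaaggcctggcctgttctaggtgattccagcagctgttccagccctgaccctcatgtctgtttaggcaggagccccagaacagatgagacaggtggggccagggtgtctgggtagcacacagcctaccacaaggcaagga
The Col4a1 and Col4a2 windows have 78 bases in common. GGGCGG was matched 1 time in the Col4a1 window and 3 times in the Col4a2 window, with 1 CCAAT match in each, and TATAAA and TGATAA were not matched in either. The Sparc window held 0 matches to all 4 motifs. Among all 32851 windows of the table, 35.7% held GGGCGG, 37.4% CCAAT, 13.6% TATAAA and 9.05% TGATAA, so such matches are common. The GC content was 74% and 73.7% in the collagen IV windows and 55.3% in the Sparc window, against a median of 52.7%. Of the 10 genes, 7 had a window in the table.

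Collagen IV was present in nearly every iHEC. Col4a1, the alpha1 chain, ranged from 0.32 to 439 TPM in iHECs with a median of 116 TPM, and was detected in 64 of 65 cells (98.5%, interval 91.7 to 100%). Col4a2, the alpha2 chain that pairs with it, ranged from 0.556 to 398 TPM with a median of 53.8 TPM and was detected in 63 of 65 cells. In 62 iHECs both chains were detected, and Col4a1 was the higher in 52 cells, with a median log2 ratio of 0.98 ± 1.92 (SD between cells, n = 65). Across the 65 iHECs the pair had a Pearson's r of 0.41, which was also 0.41 with near-identical cells counted once.
In day-14 iHPCs, Col4a1 was detected more often than Col4a2. Col4a1 was at 0 to 39.03 TPM with a median of 0.764 TPM and was detected in 10 of 21 cells (47.6%, interval 25.7 to 70.2%), and Col4a2 at 0 to 25.1 TPM in 6 of 21 cells. At day 17 each chain was detected in 3 of 18 cells, the same 3 for both, of which cells 9 and 15 held 37.7 and 29.7 TPM of Col4a1. At day 21 both chains were listed at 0 in each of the 56 cells, which allows a share of up to 5.36% by a limit of 3 cells and up to 6.38% by the exact interval. The iHECs therefore overlapped with day-14 and day-17 iHPCs for both genes, although 54 of 65 iHECs lay above the highest day-14 value of Col4a1.

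**Figure D1:**
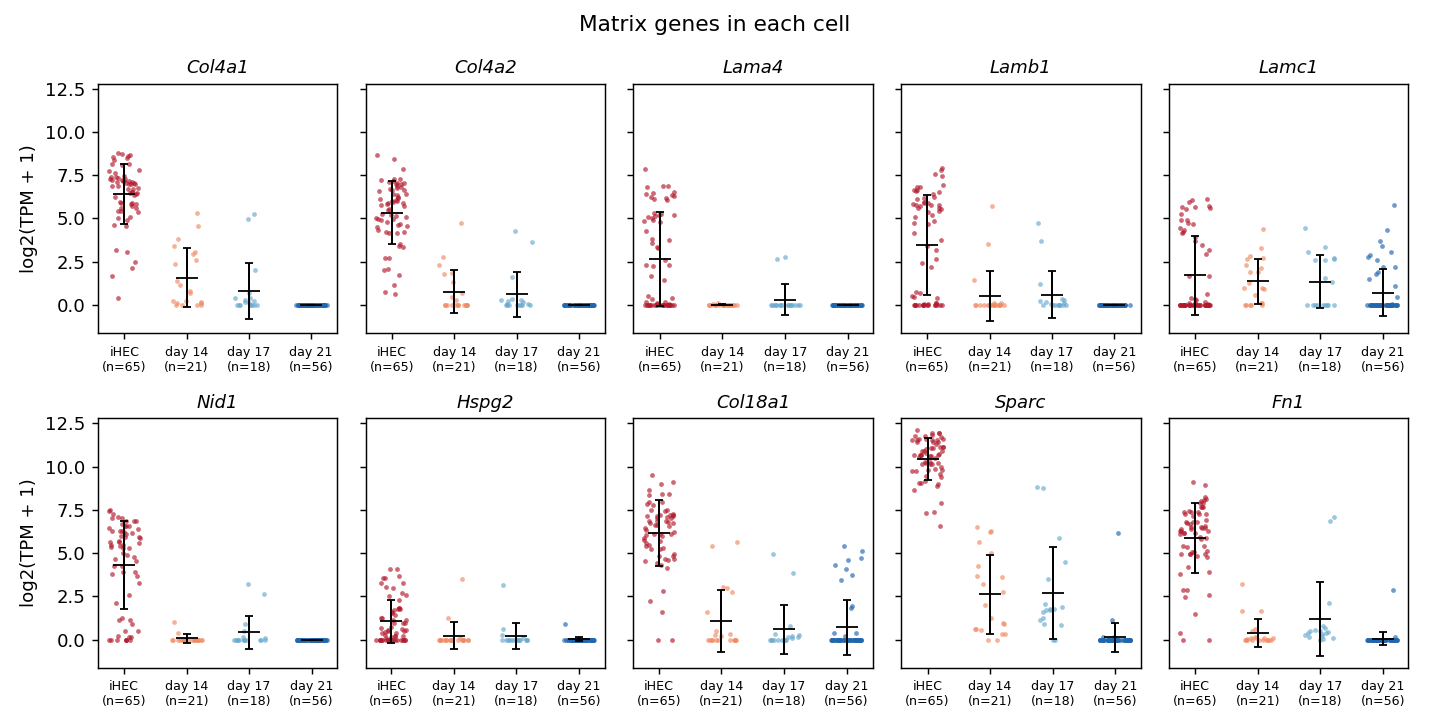
Level of each matrix gene in each cell as log2(TPM + 1), by group; points are cells (spread sideways), bars are the mean and SD between cells. Sparc is high in all 65 iHECs, collagen IV is at 0 in all 56 day-21 iHPCs, and Lamc1 is above 1 TPM in part of the cells of all 4 groups.

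The laminin chains did not behave as a set. Lama4 and Lamb1 encode the alpha4 and beta1 chains, which join the gamma1 chain encoded by Lamc1 in a laminin typical of endothelium. In iHECs, Lama4 ranged from 0 to 228 TPM with a median of 3.82 TPM and was detected in 35 of 65 cells. Lamb1 ranged from 0 to 235 TPM with a median of 24.8 TPM and was detected in 40 of 65 cells. Lamc1 ranged from 0 to 69.7 TPM with a median of 0.015 TPM and was detected in 24 of 65 cells (36.9%, interval 25.3 to 49.8%). Each chain was thus split between cells with and cells without it: 15 iHECs held all 3 chains, 15 held 2, 24 held 1 and 11 held 0.
In iHPCs the gamma1 chain was the laminin chain most often above 1 TPM. Lama4 was at most 0.071 TPM in day-14 iHPCs and was detected in 0 of 21 cells, which allows up to 14.3% by the same limit and 16.1% by the exact interval. Lamb1 was detected in 3 of 21 day-14 cells, at 51.9, 10.5 and 1.67 TPM, the lower values being those of cells 17 and 4. Lamc1 was detected in 10 of the 21 cells of day 14 (median 0.967 TPM), in 9 of 18 at day 17 (median 0.773 TPM) and in 14 of the 56 day-21 cells (25%, interval 14.4 to 38.4%). These were mostly low levels: above 10 TPM, Lamc1 was in 19 of 65 iHECs (29.2%) and in 1 day-14, 1 day-17 and 3 day-21 cells. Lamb1 was above 10 TPM in 2 day-14, 2 day-17 and 0 day-21 cells. At that threshold the order of Lamc1 against iHECs and against Lamb1 turned at days 14 and 17, but not at day 21. Of the iHPCs with Lamc1 above 1 TPM, 7 of 10, 6 of 9 and 14 of 14 had neither Lama4 nor Lamb1. The 3 chains were together in 0 day-14 cells, in 2 day-17 cells (cells 9 and 15) and in 0 day-21 cells.

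Of the proteins that link the networks, Nid1 and Col18a1 were common in iHECs and Hspg2 was low. Nid1, which encodes nidogen-1, a bridge between laminin and collagen IV, ranged from 0 to 183 TPM in iHECs with a median of 40.2 TPM and was detected in 52 of 65 cells. It was detected in 1 of 21 day-14 cells, at 1.04 TPM (0 of 17 with near-identical cells counted once), in 2 of 18 day-17 cells (cells 9 and 15, 8.17 and 5.12 TPM) and was listed at 0 in all 56 day-21 cells. Among iHPCs with blood markers, day-14 cell 14 and day-17 cell 15 were thus the 2 cells above 1 TPM.
Hspg2 encodes perlecan, a large heparan sulfate proteoglycan, and ranged from 0 to 16.1 TPM in iHECs with a median of 0.472 TPM. Detection was limited to 25 of 65 iHECs and to 2 day-14 cells, 1 day-17 cell and 0 day-21 cells. With 28 positive cells in all it missed the filter that the other 9 genes passed (above 1 TPM in more than 30 cells).
Col18a1 encodes collagen XVIII, whose C-terminal fragment is endostatin. In iHECs it ranged from 0 to 734 TPM with a median of 94.4 TPM and was detected in 63 of 65 cells. It was detected in 6 of 21 day-14 cells, and the 2 highest of them, at 49.5 and 41.8 TPM, were cells 4 and 17; without these the highest day-14 value was 7.14 TPM. At day 17 it was detected in 2 of 18 cells and at day 21 in 10 of 56 cells (17.9%, interval 8.91 to 30.4%), with up to 41.5 TPM.

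The day-21 cells with Col18a1 were cells with high Mcpt4. In these 10 cells, Mcpt4, a mast cell protease, ranged from 9647 to 45517 TPM with a median of 17865 TPM, against a median of 48.03 TPM in the other 46 day-21 cells. The presence of such proteases was not particular to them: Mcpt4 was above 1 TPM in 43 of the other 46 cells and the protease Cpa3 in all 46. Tpsb2, another mast cell protease, was listed at 0 in every day-21 cell. Of the 20 day-21 cells above 1000 TPM of Mcpt4, 10 held Col18a1, and of the 36 other cells 0 did. Gata2, a transcription factor of the mast cell lineage, was at 143 TPM or more in all 10. Of the 18 day-21 cells above 100 TPM of Gata2, 10 held Col18a1, and of the 38 other cells 0 did. The day-21 cells with Lamc1 were others: 1 cell held both genes, and 12 of the 14 Lamc1-positive cells lay at or under 1000 TPM of Mcpt4. The median of Cd3g, a T cell receptor subunit, was 75.8 TPM in the cells with Lamc1 and 0.426 TPM in those without, with overlapping ranges from 0 to 2773 TPM and from 0 to 2574 TPM. The thresholds and Gata2 were chosen after the values had been seen, and the stromal markers had a median of 1 of 19 in cells with and without either gene.

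Sparc was the most abundant of the 10 and separated iHECs from day-14 iHPCs without overlap. It encodes SPARC (osteonectin), a collagen-binding matricellular protein. In iHECs it ranged from 93.4 to 4502 TPM with a median of 1645 TPM, and it was above 10 TPM in 65 of 65 cells. In a median iHEC it made up 73.9% of the summed TPM of the 10 genes. In day-14 iHPCs it ranged from 0 to 89.7 TPM with a median of 2.93 TPM, so the lowest iHEC lay above the highest day-14 cell. A gap of that kind was present for 1 of the 10 genes and for 0.0827% of the 9674 filtered genes. At day 17 Sparc overlapped with iHECs, as did the other 9 genes, and at day 21 Sparc, Col4a1 and Col4a2 did not overlap, against 0.176% of the filtered genes. The day-17 overlap of Sparc rested on cells 9 and 15. Without them its highest day-17 value was 57.7 TPM, under the lowest iHEC, and the share of filtered genes was not recomputed for that set. The highest day-14 value was that of cell 4, and without cells 4 and 17 it was 76.5 TPM.
At days 14 and 17, Sparc was the gene of the 10 most often above 1 TPM, in 12 of 21 cells at day 14, while at day 21 Lamc1 (14 cells) and Col18a1 (10 cells) were more frequent. At day 17 it was detected in 14 of 18 cells, with a median of 2.35 TPM, and cells 15 and 9 stood apart at 451 and 440 TPM, the next being cell 3 at 57.7 TPM. In 9 day-17 cells Sparc was the sole detected gene of the 10. At day 21 it was detected in 2 of 56 cells (3.57%, interval 0.435 to 12.3%), of which cell 47 held 71.9 TPM.
Fn1 encodes fibronectin, a ligand of integrins. In iHECs it ranged from 0 to 559 TPM with a median of 78.1 TPM and was detected in 62 of 65 cells. Among iHPCs it was above 1 TPM in 3 cells each at day 14 and day 17 and in 1 at day 21. Day-17 cells 9 and 15 held 116 and 135 TPM, which is within the iHEC range, and the next day-17 cell held 3.39 TPM. Besides those 3 cells, Fn1 was present above 0 but not above 1 TPM in 14 day-17 cells, against 1 day-21 cell.

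**Figure D2:**
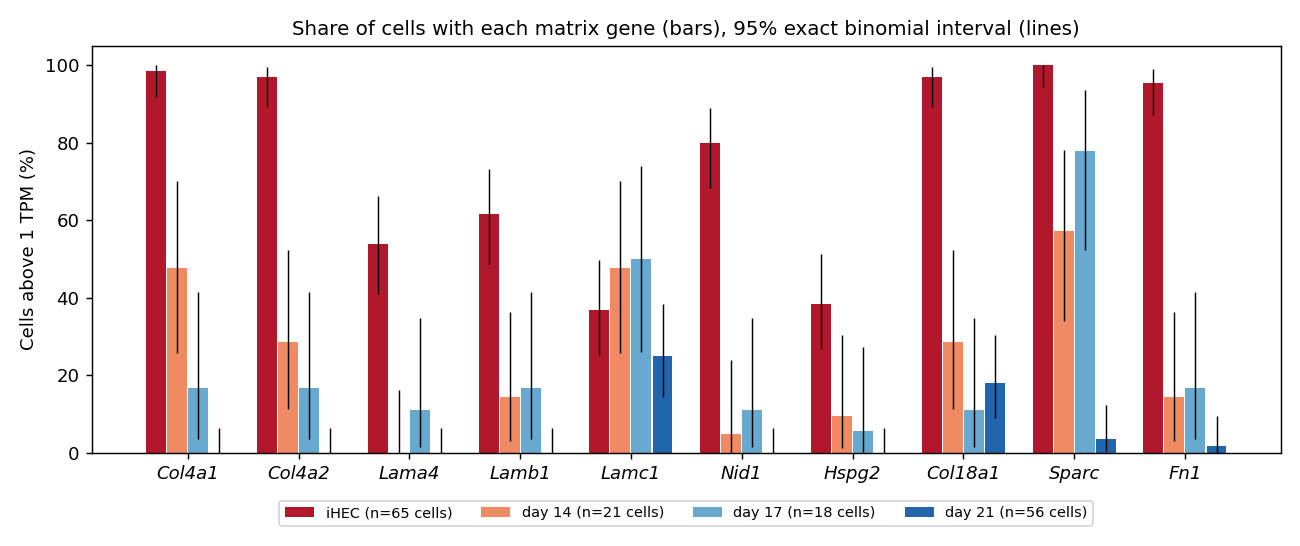
Share of cells above 1 TPM (percent) for each matrix gene in each group, with exact 95% intervals as lines. The iHEC bars are the tallest for 9 of the 10 genes, Lamc1 being the exception at 36.9% against 47.6% and 50% at days 14 and 17; above 10 TPM, which is not drawn, its order turns to 29.2% against 4.76% and 5.56%.

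By mean level in iHECs the order was Sparc (10.46 ± 1.20 on the log2 scale, SD, n = 65), Col4a1 (6.40 ± 1.73), Col18a1 (6.14 ± 1.90), Fn1 (5.85 ± 2.02), Col4a2 (5.34 ± 1.80), Nid1 (4.32 ± 2.53), Lamb1 (3.48 ± 2.90), Lama4 (2.65 ± 2.71), Lamc1 (1.70 ± 2.30) and Hspg2 (1.07 ± 1.24). Sparc stood above Col4a1 by 4.06, or 2.34 times the larger SD of the pair. Each of the other neighbours in this order differed by at most 0.401 of the larger SD, so their order is not resolved beyond the spread between cells. Sparc and Col4a1 also had the highest means at day 14 (2.61 and 1.57). At day 17 these were Sparc and Lamc1 (2.68 and 1.35), and at day 21 Col18a1 and Lamc1 (0.72 and 0.71).

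The largest difference between consecutive groups lay between iHECs and day-14 iHPCs. The mean over the 10 genes was 4.74 ± 1.24 in iHECs (2.07 to 6.86) and 0.86 ± 0.66 in day-14 iHPCs (0.0082 to 2.31), a difference of -3.88 on the log2 scale. Without day-14 cells 4 and 17 it was -4.00, and with near-identical cells counted once -3.78. Of the 10 genes, 8 were lower by at least 2 at day 14, the size used here as a mark since no test was possible, while 5.63% of the 9674 filtered genes were that much lower. Because the 10 were chosen with earlier results of these data known, the contrast with that share describes the list and does not test it. Sparc differed by -7.85, Fn1 by -5.46, Col18a1 by -5.06, Col4a1 by -4.83, Col4a2 by -4.57, Nid1 by -4.25, Lamb1 by -2.96 and Lama4 by -2.64. The remaining genes were Hspg2 (-0.84) and Lamc1 (-0.32, or 0.28 with a pseudocount of 0.1). Their iHEC means were 1.07 and 1.70, so on the log2(TPM + 1) scale, which ends at 0, neither could be lower by 2. None of the 10 was higher by at least 2, against 25.7% of the filtered genes. The median difference of the 10 was -4.41 and that of the filtered genes 0.93. In single-cell TPM, less RNA of a gene per cell and a larger total of other RNA cannot be told apart.

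**Figure D3:**
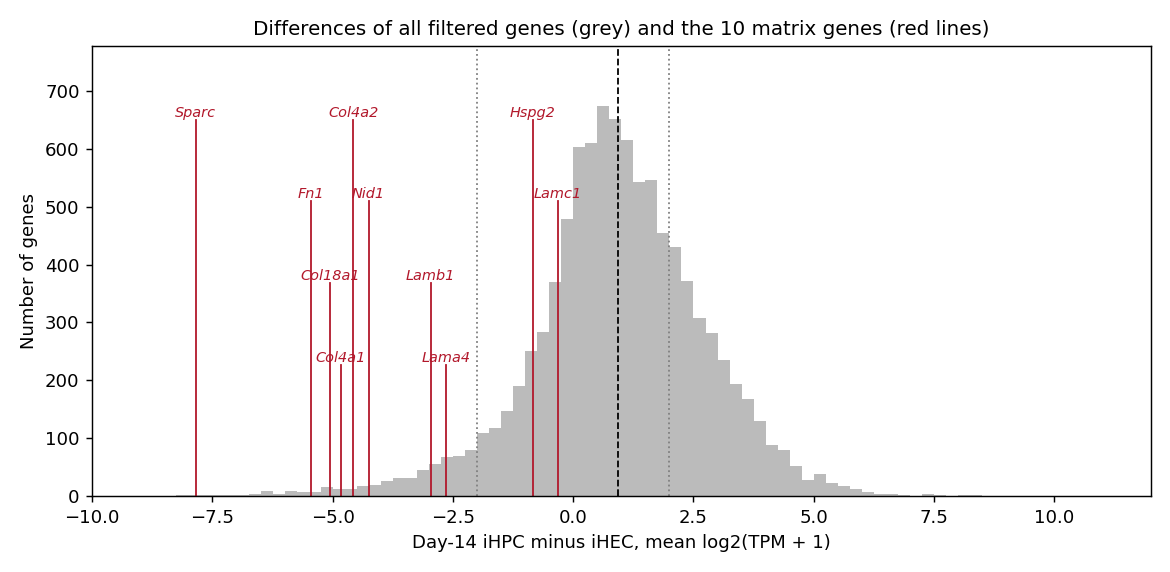
Histogram of the difference between day-14 iHPCs and iHECs in mean log2(TPM + 1) for the 9674 filtered genes (grey), with a red line for each of the 10 matrix genes, whose height has no meaning. The dashed line is the median of 0.93 and the dotted lines are at -2 and 2; 8 of the red lines lie left of -2, and Hspg2 and Lamc1 lie between the dotted lines.

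Between day 14 and day 17 the mean over the 10 genes differed by 0.01, from 0.86 ± 0.66 to 0.88 ± 1.29, and by -0.41 without day-17 cells 9 and 15. Of the 10, 0 were lower and 0 were higher by at least 2, against 0.62% and 2.76% of the filtered genes. Only Sparc had a day-14 mean above 2 (2.61), so on a scale that ends at 0 no other gene could be lower by that much. The wider spread at day 17 came with cells 9 and 15. Without both, the day-17 mean was 0.45 ± 0.36 (n = 16), Col4a1, Col4a2, Lamb1, Col18a1 and Fn1 were each detected in 1 cell, and Lama4, Nid1 and Hspg2 in 0 cells. Without cell 9 alone the mean was 0.64 ± 0.85 (n = 17).
Between day 17 and day 21 the mean differed by -0.71, to 0.16 ± 0.21, while the median of the filtered genes was -0.74. Without day-17 cells 9 and 15 the difference was -0.29. Sparc was the 1 gene lower by at least 2 (-2.54), against 7.76% of the filtered genes, and 0 were higher by that much, against 0.755%. The scale ends at 0 and the day-17 means of the other genes were at most 1.35 (Lamc1). Only Sparc could thus be lower by 2, so the count of lower genes cannot be read against that share. Without cells 9 and 15 the day-17 mean of Sparc was 1.91 and its difference -1.77, so 0 of the 10 could reach that size. Col18a1 was the 1 gene with a positive difference (0.12), which turned to -0.09 with a pseudocount of 0.1. At day 21, 31 of 56 cells had none of the 10 genes above 1 TPM and the most in a cell was 2, whereas iHECs had 4 to 10. Of the 10 genes, 5 were listed at 0 in every day-21 cell, as were 1.31% of the filtered genes. These 5 were each above 1 TPM in at least 35 of 65 iHECs, which alone passes the filter. A gene that passed it through day-21 cells cannot be at 0 in all of them, so the 2 shares cannot be weighed against each other.

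Within the iHECs the 10 genes varied with each other only loosely. The number detected per iHEC had a median of 7, with all 10 in 12 cells. The lowest mean was 2.07 in iHEC 50, with 4 genes detected, and the highest was 6.86 in iHEC 45, with 10. Over the 45 pairs of genes, Pearson's r across the 65 iHECs ran from 0.13 to 0.67 with a median of 0.31. The closest were Sparc and Fn1 (0.67), Col4a2 and Sparc (0.65) and Col4a2 and Fn1 (0.62), and the least close were Lamb1 and Nid1 (0.13). The 3 laminin chains had r of 0.16 to 0.30 with each other. With near-identical cells counted once (61 cells) the 45 values ran from 0.11 to 0.67 with a median of 0.30. These points share the scaling of their library, and the mean of the 10 genes had an r of 0.22 with the number of genes detected.

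**Figure D4:**
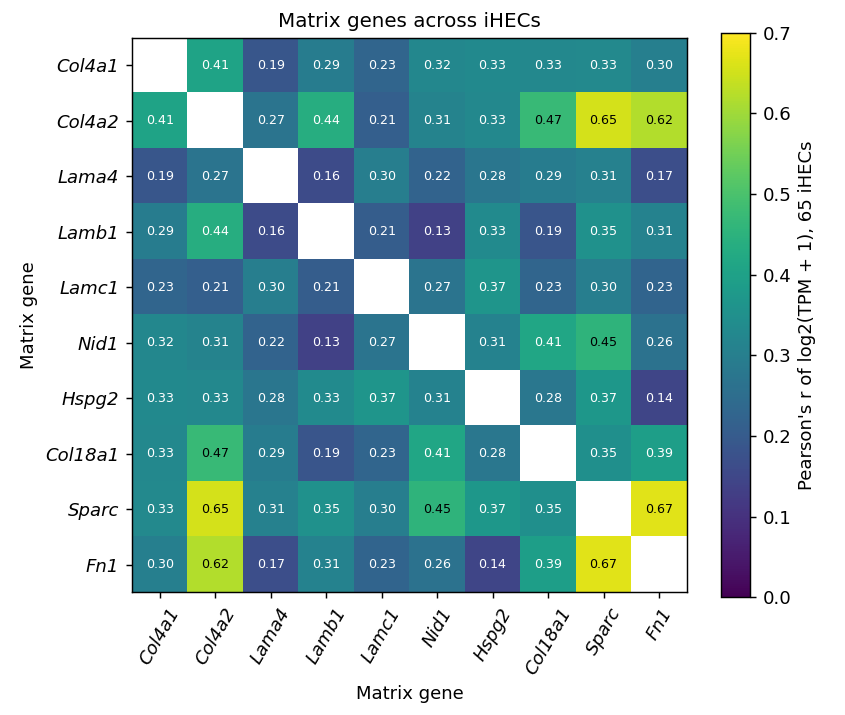
Pearson's r between matrix genes across the 65 iHECs, on log2(TPM + 1); colour and number give r. The highest values join Sparc, Fn1 and Col4a2 (0.62 to 0.67), and the median over the 45 pairs is 0.31.

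Among 6609 other genes detected in at least 20 iHECs, those most like the mean of the 10 reached an r of 0.58 to 0.66, against a median of 0.06 over all 6609. Ctsl, the protease cathepsin L, came first (r = 0.66), followed by Efna1, the ligand ephrin-A1 (0.64), and Flt1, a VEGF receptor (0.61). Then came the kinase Map4k4 (0.61), Cdh5 (0.61), the growth factor Igf2 (0.60), the motor protein Myo10 (0.59), Sparcl1, a relative of Sparc (0.59), the IGF-binding protein Igfbp3 (0.59) and the tetraspanin Cd82 (0.58). Several of these were seldom detected in iHPCs: Efna1 was detected in 64 of 65 iHECs, 1 of 21 day-14 cells and 0 of the later cells, and Sparcl1 in 24 iHECs and 0 iHPCs. Cd82 went the other way, with a mean of 3.59 in iHECs, 4.50 at day 14 and 7.93 at day 17. Of these 10 genes, 6 were also among the closest 10 by Spearman's correlation and 7 with near-identical cells counted once. Across the 12 endothelial markers r with the matrix mean was 0.12 (Tie1) to 0.61 (Cdh5), and across the 6 blood markers -0.34 (Sfpi1) to -0.05 (Laptm5). For Itga2b, which encodes CD41, it was -0.15.

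Few stromal markers were detected per iHPC, and the most were in a day-17 cell rich in matrix. Of 19 stromal markers, day-14 cells had 0 to 3 above 1 TPM, day-17 cells 0 to 7 and day-21 cells 0 to 4, with medians of 1, 2 and 1, and iHECs had 0 to 3 with a median of 0. Their summed TPM reached 123, 442 and 167 in the iHPCs of the 3 days, from 0 in each. Of the 19, Col3a1, Col6a2, Lum and Mgp were listed at 0 in all 160 cells, and no OP9-DL1 cells were among the samples for comparison. Day-17 cell 15 had the most stromal markers (7) and cell 9 had 5, and these 2 were the day-17 cells with Col1a1 (8.98 and 45.2 TPM), Col5a1 (18.6 and 35.9 TPM) and Pdgfra (5.03 and 3.25 TPM). Other cells held stromal markers with little matrix: day-17 cell 12 had 4 of them (summed 188 TPM, against 187 TPM in cell 15) at a matrix mean of 0.82, and day-21 cell 24 had 4 (167 TPM) with 0 of the 10 genes. Pdgfrb, a receptor listed among the stromal markers, was instead spread over 10 of 21, 16 of 18 and 44 of 56 iHPCs and 0 iHECs, and Tagln, a smooth muscle actin-binding protein, over 10 of 18 day-17 cells. Without both, cells 15, 9 and 12 had 5, 3 and 3 of the other 17 markers. Whether feeder cells or their RNA took part in the matrix values of iHPCs was not tested.

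Endothelial markers accompanied collagen IV in a few day-14 cells. Cells 14, 19 and 21 had 5, 4 and 5 of the 12 markers, among them Pecam1, Tie1 and Ecscr, against a day-14 median of 2, and each held all 6 blood markers; cells 14 and 21 are a near-identical pair (r = 0.935). Pecam1 was not particular to these cells, being above 1 TPM in 17 of 21 day-14 cells, while Tie1 and Ecscr were in 5 each. Cell 19 had the highest Col4a1 (39.03 TPM) and Col4a2 (25.1 TPM) of day 14, cell 14 held 12.9 and 5.87 TPM and cell 21 held 6.64 and 1.48 TPM. Cell 15 held 22.7 TPM of Col4a1 and 0 of Col4a2, with Kdr (27.6 TPM), Eng (42.1 TPM) and Cldn5 (106 TPM) as its endothelial markers and 3103 genes detected. Of the defining markers, Cdh5 and Tek were listed at 0 in all day-14 cells, and Kdr, Tie1 and Cldn5 were detected in 1, 5 and 2. Without cells 14, 19 and 21 the day-14 mean over the 10 genes was 0.76 ± 0.62 (n = 18), and Col4a1 was detected in 7 and Col4a2 in 3 of 18 cells. The part of leftover endothelial transcripts in these values was not tested.

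**Figure D5:**
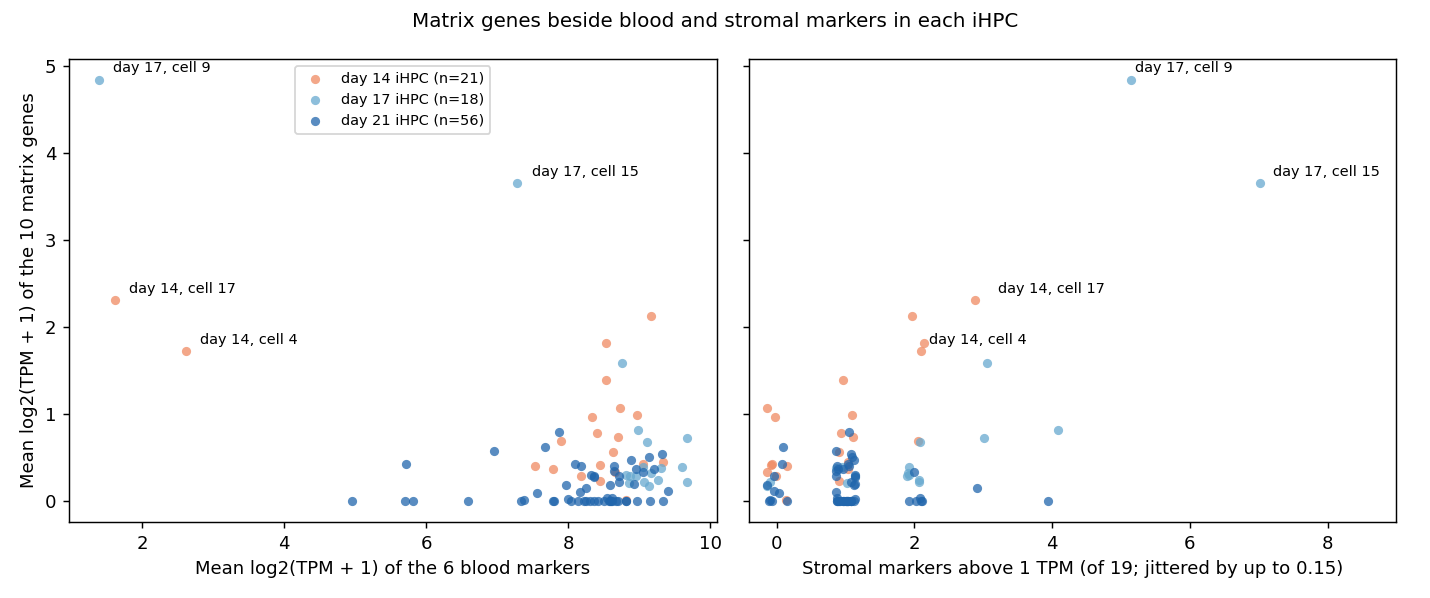
Mean log2(TPM + 1) of the 10 matrix genes in each iHPC against the mean of the 6 blood markers (left) and the number of the 19 stromal markers above 1 TPM (right); each point is a cell. Day-17 cells 9 and 15 lie highest, at 4.85 and 3.66, and day-14 cells 4 and 17 share with day-17 cell 9 a blood marker mean under 3.

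The wider matrix program was described with 96 further genes in 8 lists. Between iHECs and day-14 iHPCs, 23 of the 96 were lower and 3 were higher by at least 2, with a median difference of -0.21, against 5.63% lower, 25.7% higher and a median of 0.93 among the filtered genes. The 96 genes were not put through the filter, so low genes weigh on their counts and median. Without the filter, 3.53% of 15988 genes were lower and 15.8% higher by at least 2. The lists were also chosen with earlier results of these data known. The counts by list below stand beside the same shares, with these limits. The other collagen IV chains (4 genes) and other laminin chains (8 genes) had 0 genes past that size in either direction. Their iHEC means were at most 0.74 (Lama5), so none could be lower by 2 on this scale. Col4a5 and Col4a6 were detected in 2 and 4 of 65 iHECs, Lama5 in 15 and Lamb2 in 12, so that the alpha1 and alpha2 chains of collagen IV stood nearly alone. Of 13 other basement membrane genes, 1 was lower by at least 2, Nid2, which encodes nidogen-2 (3.58 to 0.83), and Agrn, which encodes the proteoglycan agrin, went from 1.90 to 0.0049. Unlike Nid1, Nid2 and Agrn were each detected in 9 of 18 day-17 cells, and in 7 of the 16 left without cells 9 and 15, and Agrn in 12 of 56 day-21 cells.

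Genes that make and crosslink collagen split into a part that was lower in iHPCs and a part that was kept. Of 12 collagen synthesis genes, 4 were lower by at least 2 at day 14: Serpinh1, the collagen chaperone HSP47 (5.03 to 0.16), P4ha1, a catalytic subunit of prolyl 4-hydroxylase (6.24 to 3.19), P4ha2 and Plod2. P4hb and Ppib, which also serve other secreted proteins, were detected in all 95 iHPCs. Of 7 crosslinking genes, 3 were lower: Tgm2, a transglutaminase (7.26 to 0.49), Pxdn, the peroxidase that crosslinks collagen IV (3.65 to 0.33), and Loxl2. Tgm2 was higher at day 17 than at day 14, with 11 positive cells of 18. Its mean over all 18 cells was 3.73, or 3.82 without cells 9 and 15, and it stood at 1.004 at day 21.

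Of 12 matrix proteases and inhibitors, 4 were lower by at least 2 at day 14. Timp3, an inhibitor held in the matrix, was detected in 63 of 65 iHECs and 0 of 21 day-14 cells (7.26 to 0), and Mmp14, a membrane-bound protease, in 48 of 65 and 1 of 21 (5.30 to 0.18). Mmp2, the gelatinase that MMP14 activates, went from 5.15 to 1.53. Timp2, another inhibitor, was higher at day 17 than at day 14, with means of 0.73 and 5.63, and was detected in 16 of 18 day-17 and 39 of 56 day-21 cells. Of 19 matricellular and elastic fibre genes, 6 were lower and 2 higher at day 14. Mmrn2, an endothelial matrix protein, went from 4.002 to 0, and Cyr61, an integrin-binding matricellular protein, from 5.25 to 0.59, while Emilin1 and Igfbp7 were higher by 2.098 and 2.23.

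Of 21 matrix receptors, 5 were lower by at least 2 at day 14 and 1 was higher. Sdc4, a heparan sulfate proteoglycan that works with integrins, went from 3.58 to 0.47, and Itgb5, an integrin beta chain, from 1.05 to 3.81. Itgb1, the beta chain of most laminin and collagen receptors, went from 7.83 to 5.61 and remained detected in all 39 day-14 and day-17 cells and in 52 of 56 day-21 cells. Lair1, an inhibitory collagen receptor of leukocytes, had a mean of 0.09 in iHECs, against 0.77, 4.15 and 4.28 in the iHPCs of the 3 days. From day 14 to day 17, 3 of the 96 genes were higher by at least 2 (Tgm2, Timp2 and Lair1) and 0 lower, against 2.76% and 0.62% of the filtered genes. From day 17 to day 21, 6 were lower and 0 higher, against 7.76% and 0.755%. The 96 genes were not filtered, and some of them, such as Lama2 and Lox, were at 0 in every group. These counts and shares are thus over unlike sets, and whether they differ cannot be read from them. Genes with an earlier mean under 2 cannot be lower by 2 on this scale.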

How the data were processed

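Per the labels, the authors aligned reads of amplified single-cell cDNA to mm10 with HISAT2 2.1.0 and SAMtools 0.1.19 and deposited TPM from StringTie 1.3.4, with 0 columns left unused here. Annotation and strand setting are not given in the sources used here, so overlapping ends (Col4a1, Col4a2) may share reads. TPM keep no read counts and summed to 988686 to 999108 per cell.

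Values were analysed as log2(TPM + 1) with pandas 2.3.3, numpy 2.4.6 and scipy 1.17.1, and ranking steps were tested on simulated data. Differences are later minus earlier group means, read against genes above 1 TPM in more than 30 cells and a size of 2. Where 0 cells were positive, the limit is 3 cells of the total. Genes named were the 10 members, the 10 with the highest Pearson's r with their mean among genes detected in at least 20 iHECs, the 2 with the largest difference in each of 8 lists, and markers. Others (further genes past the size, Timp2, Lair1, Pou5f1, Krt18, Gata2, Itga2b and genes kept in iHPCs) were added after their values were seen. Members and lists were chosen with earlier results of these data known. Positions are from GENCODE M21 (GRCm38, the assembly of mm10), and older symbols were matched through RefSeq. Alternatives were other pseudocounts, thresholds, sizes and scaling, cells left out (the sets named by cell number chosen after seeing the data), pairs of cells with an r above 0.92 averaged and counted once (also chosen after seeing the data) and Spearman's correlation.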

Additional observations from a re-analysis of the deposited data

How the results depend on the processing

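No paired analysis was possible because the labels name no culture and no result comes from a test. The difference in the mean of the 10 genes between iHECs and day-14 iHPCs was -3.88 with a pseudocount of 1, -5.43 with 0.1 and -2.21 with 10, which damps low values by construction, and the number of genes lower by at least 2 was 8, 9 and 5. Scaling by median-of-ratios factors moved the median of all genes by at most 0.07. Between day 17 and day 21, the 1 gene lower by at least 2 became 2 with a size of 1 (38.5% of all genes) or a pseudocount of 0.1 (28%), and 0 with a size of 3, a pseudocount of 10 or without day-17 cells 9 and 15. Of the 10 genes nearest to the matrix mean, 6 were kept with Spearman's correlation and 6 without the tenth of iHECs with fewest genes. Without the filter, 3.53% of 15988 genes were lower and 15.8% higher by at least 2 at day 14, 1.79% were higher at day 17, and 4.83% were lower and 0.5% higher at day 21. Of the 30 differences of single genes, 30 moved by less than 1 SD between cells with other scaling and without the cells with fewest genes. No difference of at least 2 changed sign under the alternatives run; among all 242 recomputed differences, 18 changed sign, 16 of them between day 14 and day 17, besides Lamc1 between iHECs and day 14 and Col18a1 between day 17 and day 21, both with a pseudocount of 0.1. Of the 40 shares of cells, 14 left their interval with a threshold of 0 TPM and 16 with 10 TPM. At 10 TPM the order of Lamc1 between iHECs and the iHPCs of days 14 and 17 turned. With near-identical cells counted once, 1 of the 40 shares left its interval, and the differences of single genes moved by less than 1 SD in 30 of 30 cases.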
